A study of Mus musculus with 6 samples.

Results

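The genes described here were the 6 mouse CC chemokines Ccl2, Ccl7, Ccl8, Ccl12, Ccl6 and Ccl9, out of 34187 gene features in the deposited matrices. They make up a list of chemokines that attract monocytes, followed in macrophages, monocytes, neutrophils, fibroblasts and tumor cells, and the list was drawn up with the knowledge that Ccl8 was higher after both cytokine treatments. The members were thus chosen by measured values, namely the Ccl8 differences from PBS, and these are given as a description with no test. The other 5 genes were tested wherever they passed the filter on low counts, and Ccl8 was tested only between the cytokines, a contrast that the choice did not use.

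CC chemokines are small secreted proteins that bind seven-transmembrane receptors and guide leukocytes along their gradient. Ccl2 and Ccl7 are ligands of Ccr2, the receptor that draws inflammatory monocytes out of bone marrow and into tumors, and Ccl12 is a further mouse ligand of Ccr2. Ccl8 in the mouse is a ligand of Ccr8, and Ccl6 and Ccl9 are rodent chemokines of myeloid cells that act on Ccr1. IL-10 is known as a cytokine that turns macrophages away from inflammatory gene expression through Stat3, and tumor macrophages are a well-known source of these chemokines.

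Single-cell RNA sequencing (10x GEM-X 5' chemistry with hashtag antibodies) was run on tumors grown s.c. from 6694c2vTRP1 cells, a line derived from the KPC model of pancreatic ductal adenocarcinoma, in C57BL/6 mice. The study used male and female mice for this tumor model and isolated CD45+ cells with beads, and the age of the sequenced mice was not given in the sources used here. Mice were injected i.p. with PBS, with mono-IL10 at 26 μg per mouse (a monomeric IL-10) or with IL10/2-Trikine at 30.6 μg per mouse (mono-IL10 joined to an IL-2 arm that brings the IL-2 receptor beta chain into the complex), in 2 doses from day 8, and tumors were taken on day 14. Each treatment was 1 library in which 5 mice carried 5 different hashtags, so the mouse was the replicate and the treatment cannot be told apart from the library. All mice shared the tumor line, the schedule and the route of injection.

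The libraries held 30528 to 55504 barcodes and 364814102 to 515236552 gene UMIs, and 92851 cells entered the clustering, of which 66727 carried a mouse. A UMI is a molecular tag counted once per captured transcript, and levels are given as CPM, the UMIs of a gene scaled to a common total of UMIs from the same cells. Cell classes were rebuilt from marker genes and are written with the ending "-like". The 5 classes held 16249 macrophage-like, 1796 monocyte-like, 973 neutrophil-like, 2018 fibroblast-like and 39428 tumor epithelial-like cells, so tumor cells were common although CD45+ cells had been isolated. Clusters whose markers were too low or mixed with those of another lineage, or that otherwise missed the naming rule, stayed unnamed and took 35.18%, 28.2% and 26.76% of clustered cells in PBS, mono-IL10 and IL10/2-Trikine, and they held 46.67% of all Ccl8 UMIs. The IL10/2-Trikine library was the shallowest, with a median of 6221 UMIs per clustered cell against 8989 in PBS and 11208 in mono-IL10. Pairs of libraries shared 206 to 342 clustered barcodes. The neutrophil-like class had only 27 cells in the IL10/2-Trikine library and was not tested there.

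The promoters of 4 of the 6 genes were matched in RefSeq (build GRCm38.p6), and these are shown. They fall into 2 pairs that are also pairs by level below. Ccl2 and Ccl7 had no promoter matched and could not be compared. By level Ccl2 was most like Ccl7 (r = 0.797), but Ccl7 was more like Ccl12 (0.826) and Ccl8 (0.811). Each sequence runs 5′ to 3′ along the gene, from 250 bases before to 50 bases after the start of transcription. Capitals mark stretches of at least 8 identical aligned bases that the promoter shared with its partner. The first pair was Ccl8 (chr11:82114935-82115234, plus strand) and Ccl12 (chr11:82101595-82101894, plus strand), and the second was Ccl6 (chr11:83593038-83593337, minus strand) and Ccl9 (chr11:83578587-83578886, minus strand).
Ccl8: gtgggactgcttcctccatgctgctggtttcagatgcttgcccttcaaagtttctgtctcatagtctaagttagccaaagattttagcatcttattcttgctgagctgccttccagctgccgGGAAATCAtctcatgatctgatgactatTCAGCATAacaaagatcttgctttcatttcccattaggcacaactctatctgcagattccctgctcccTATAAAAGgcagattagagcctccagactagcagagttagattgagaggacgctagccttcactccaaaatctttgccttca
Ccl12: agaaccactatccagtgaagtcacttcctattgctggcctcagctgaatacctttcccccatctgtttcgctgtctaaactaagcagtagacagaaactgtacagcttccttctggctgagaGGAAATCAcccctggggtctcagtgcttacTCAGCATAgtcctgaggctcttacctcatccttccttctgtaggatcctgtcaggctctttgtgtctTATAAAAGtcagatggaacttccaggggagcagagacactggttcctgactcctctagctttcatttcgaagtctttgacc
Ccl6: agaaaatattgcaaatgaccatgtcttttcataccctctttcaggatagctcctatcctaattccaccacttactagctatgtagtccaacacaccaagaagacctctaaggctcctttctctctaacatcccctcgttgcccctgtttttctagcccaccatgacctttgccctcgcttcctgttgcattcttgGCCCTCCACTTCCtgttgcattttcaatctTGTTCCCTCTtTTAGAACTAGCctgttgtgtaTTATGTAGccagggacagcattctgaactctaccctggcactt
Ccl9: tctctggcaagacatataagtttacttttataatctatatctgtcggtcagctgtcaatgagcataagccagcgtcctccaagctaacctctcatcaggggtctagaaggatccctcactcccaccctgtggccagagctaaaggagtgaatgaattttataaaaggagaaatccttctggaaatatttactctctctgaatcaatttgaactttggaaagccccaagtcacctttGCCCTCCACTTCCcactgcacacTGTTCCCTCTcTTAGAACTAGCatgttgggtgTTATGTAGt

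Identity over the aligned bases was 63.9% for Ccl8 and Ccl12, with 24 bases in shared stretches, and 62.9% for Ccl6 and Ccl9, with 42. The 4 other pairings had 53.6% to 58.2% identity and 0 to 8 bases in such stretches. Both strands were searched for 4 motifs, namely a STAT palindrome (TTCNNNGAA, in 8.3% of 32851 promoters of this length), an interferon-stimulated response element (3.44%), an AP-1 site (TGANTCA, 7.81%) and a kappaB site (8.46%). In Ccl9 an AP-1 match lay 53 bases and a kappaB match 35 bases before the start. The windows of Ccl8, Ccl12 and Ccl6 held none of these letters.

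Ccl8 was highest in macrophage-like cells, where its level after either cytokine was more than that of any PBS mouse. It stood at 1406, 1192, 1184, 1164 and 2132 CPM in the 5 PBS mice, at 4511, 3602, 2254, 2967 and 3164 CPM in the mono-IL10 mice and at 3198, 4289, 4654, 3036 and 3363 CPM in the IL10/2-Trikine mice. The lowest cytokine mouse was above the highest PBS mouse, by a narrow margin in mono-IL10, and the cytokine groups overlapped each other over most of their range. The means were 1416 ± 412 (SD, n = 5), 3300 ± 834 (SD, n = 5) and 3708 ± 718 (SD, n = 5) CPM. As a description, the fitted log2 fold change against PBS was 1.33 for mono-IL10 and 1.41 for IL10/2-Trikine, and both contrasts use the same PBS mice. Between the cytokines, Ccl8 did not pass the test, with a log2 fold change of 0.08 (SE 0.17, 95% interval -0.29 to 0.44, adjusted p = 0.858 by edgeR's quasi-likelihood test with Benjamini-Hochberg adjustment over all genes), so differences beyond that interval lay outside what these mice showed.

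**Figure D1:**
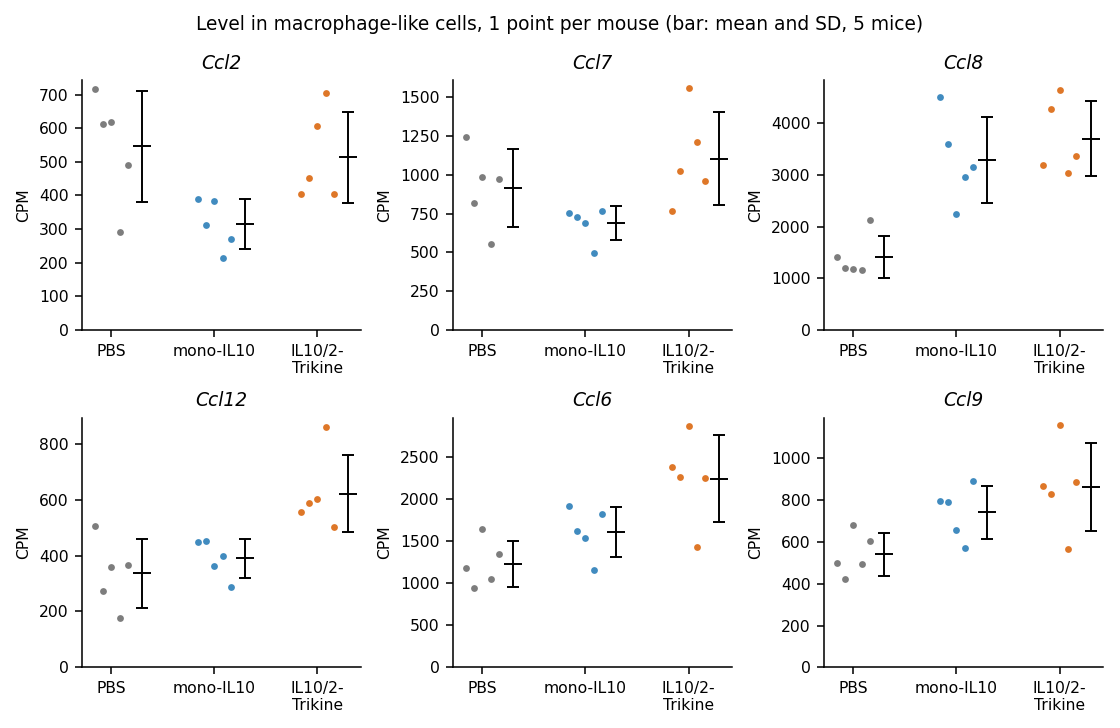
Level of each of the 6 chemokines in macrophage-like cells, in CPM on a linear axis from 0, with 1 point per mouse and the mean and SD of 5 mice beside them. The Ccl8 points of both cytokine groups lie above all PBS points, between 2254 and 4654 CPM, while Ccl2 is lowest after mono-IL10.

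Summed over a library, Ccl8 was higher in all 10 macrophage-like clusters of both cytokine libraries, and by mouse in nearly all. Of the 10 macrophage-like clusters, 10 had more Ccl8 in the mono-IL10 library than in the PBS library and 10 had more in the IL10/2-Trikine library, with fold differences of 1.17 to 2.83 and of 1.47 to 3.77. The makeup of the class also moved with treatment: cluster 18 held 26.2% of the PBS cells, cluster 17 held 27.7% of the mono-IL10 cells and cluster 12 held 32.1% of the IL10/2-Trikine cells. With every library given the same mix of clusters, the Ccl8 fold against PBS went from 2.47 to 2.29 for mono-IL10 and from 2.50 to 2.33 for IL10/2-Trikine. These folds compare single libraries and are values with no test. Among clusters with 3 or more mice in both groups, the median over mice was above that of PBS in 8 of 9 for mono-IL10 and in 7 of 7 for IL10/2-Trikine. The exception was the interferon-gene cluster 56, at 1686 to 3863 CPM in PBS (median 2117) and 1373 to 3110 CPM in mono-IL10 (median 1412, n = 3 in each).

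Ccl8 had its highest level in the cluster that carried the resident-type macrophage genes. Cluster 30, led by Ccl8, Cd163 (a hemoglobin scavenger receptor) and Folr2 (a folate receptor of tissue-resident macrophages), had 11347 CPM of Ccl8, and its mice ranged from 4581 to 7628 CPM in PBS (n = 4), from 10163 to 16337 CPM in mono-IL10 and from 12194 to 15767 CPM in IL10/2-Trikine. Clusters 15, 17 and 18 had 4274, 3654 and 1951 CPM. Cluster 56 was at 2144 CPM in PBS, 2500 CPM in mono-IL10 and 3154 CPM in IL10/2-Trikine. At the other end, cluster 28, led by Gpnmb and Mmp12, had 483 CPM. The chemokine and receptor genes had been kept out of the genes used for clustering, so this order was not built in through them.

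**Figure D2:**
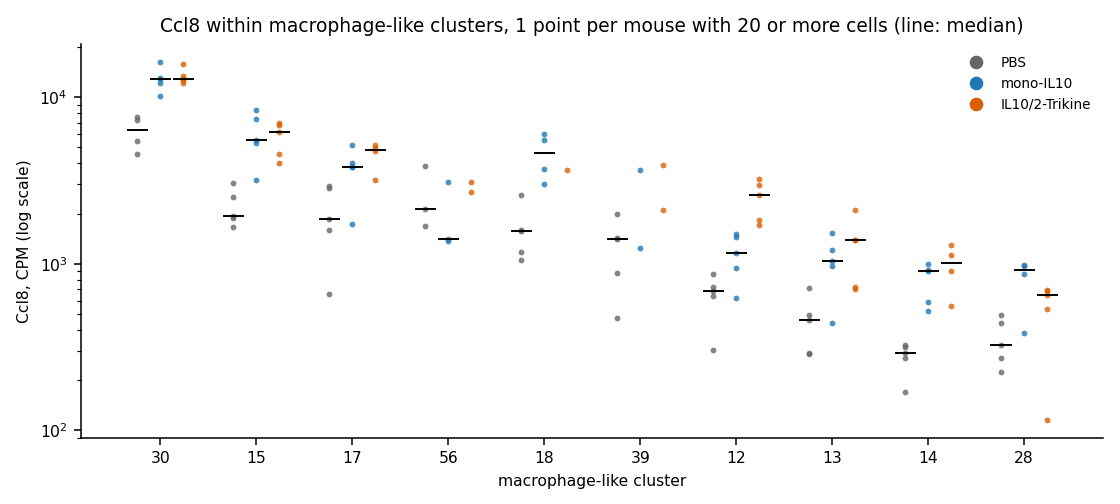
Ccl8 level in each of the 10 macrophage-like clusters, in CPM on a log axis, with 1 point per mouse that had 20 or more cells and a line at the median where there were 3 or more mice. In cluster 30 the PBS mice reach 7628 CPM and the lowest cytokine mouse is at 10163 CPM.

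The share of macrophage-like cells with at least 1 Ccl8 UMI followed the level. After each cell had been thinned to 2000 UMIs, Ccl8 was found in 44.1% of PBS, 56.5% of mono-IL10 and 63.4% of IL10/2-Trikine macrophage-like cells, and without thinning in 55.5%, 67.4% and 69.1%. Thinning left out 254, 123 and 848 cells with fewer UMIs, and the median depths were 4896, 6135 and 2726 UMIs. In T cell-like cells, which are not known to make Ccl8, the thinned shares were 18.0%, 19.2% and 30.3% at median depths of 2560, 3457 and 2380 UMIs, and the part of free RNA in the macrophage shares was not tested.

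Ccl12, the partner of Ccl8 across clusters, rose in macrophage-like cells after IL10/2-Trikine. Its level was 507, 274, 359, 176 and 367 CPM in PBS, 449, 452, 364, 399 and 286 CPM in mono-IL10 and 557, 587, 603, 859 and 503 CPM in IL10/2-Trikine. Only PBS mouse 1 reached into the IL10/2-Trikine range. Against PBS, Ccl12 rose by 0.90 on the log2 scale after IL10/2-Trikine (SE 0.20, adjusted p = 0.00366, edgeR), and the value after mono-IL10 was 0.33 (SE 0.19, adjusted p = 0.237, edgeR), which did not pass. The direct contrast of the cytokines gave 0.57 (SE 0.20, 95% interval 0.16 to 0.98, adjusted p = 0.0695, edgeR), so a difference between them was not shown. It was called only in the fits without PBS mouse 1 or PBS mouse 4. In library sums Ccl12 was above PBS in 10 of 10 clusters for either cytokine, but by the median over mice in 7 of 7 clusters for IL10/2-Trikine and in only 6 of 9 for mono-IL10, with clusters 12, 28 and 56 the other way (cluster 12 had 305.8 CPM in PBS and 204.8 CPM in mono-IL10). In library sums its fold for IL10/2-Trikine was 1.75 as measured and 1.84 at equal makeup.

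Ccl2 fell in macrophage-like cells after mono-IL10, and its value after IL10/2-Trikine did not pass the test. The mice had 717, 613, 618, 290 and 490 CPM in PBS, 389, 313, 385, 214 and 272 CPM in mono-IL10 and 403, 452, 606, 705 and 405 CPM in IL10/2-Trikine. All mono-IL10 mice were below every IL10/2-Trikine mouse, and PBS mouse 4 lay among the mono-IL10 mice. Ccl2 fell by 0.68 on the log2 scale after mono-IL10 (SE 0.21, adjusted p = 0.0188, edgeR), and the call was lost without PBS mouse 1, at -0.58 with an adjusted p of 0.0614 (edgeR), or without mono-IL10 mouse 4, also at -0.58 with an adjusted p of 0.0536 (edgeR). The value after IL10/2-Trikine was -0.09 (SE 0.21, adjusted p = 0.843, edgeR), and the difference between the cytokines, 0.60 (SE 0.21, adjusted p = 0.0762, edgeR), missed the threshold. In library sums Ccl2 was lower than in PBS in all 10 clusters of the mono-IL10 library, with a fold of 0.578 as measured and 0.593 at equal makeup. For IL10/2-Trikine this fold was 0.797 as measured and 0.782 at equal makeup, with 2 of 10 clusters higher than in PBS. By the median over mice, Ccl2 was higher than in PBS in 0 of 9 clusters for mono-IL10 and in 0 of 7 for IL10/2-Trikine.

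Ccl7 was the 1 member called between the cytokines in macrophage-like cells, where Ccl2 and Ccl12 differed by as much without passing. Ccl7 was at 1244, 817, 984, 554 and 975 CPM in PBS, at 753, 729, 689, 499 and 767 CPM in mono-IL10 and at 764, 1023, 1557, 1211 and 963 CPM in IL10/2-Trikine. IL10/2-Trikine mouse 1 alone fell within the mono-IL10 range, while PBS overlapped both. Ccl7 was higher with IL10/2-Trikine than with mono-IL10 by 0.58 on the log2 scale (SE 0.18, adjusted p = 0.041, edgeR). This call was near the threshold and was lost in 8 of 15 fits that each left out 1 mouse, with values of 0.44 to 0.69 over all 15. Neither contrast against PBS passed, at -0.30 (SE 0.18, adjusted p = 0.228, edgeR) for mono-IL10 and 0.28 (SE 0.18, adjusted p = 0.312, edgeR) for IL10/2-Trikine.

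Ccl6 and Ccl9, the Ccr1 ligands, rose together in macrophage-like cells after both cytokines. Ccl6 was at 1181, 943, 1643, 1054 and 1352 CPM in PBS, at 1917, 1626, 1540, 1154 and 1825 CPM in mono-IL10 and at 2387, 2273, 2877, 1436 and 2254 CPM in IL10/2-Trikine. Ccl9 was at 499, 424, 681, 493 and 604 CPM in PBS, at 797, 793, 657, 573 and 892 CPM in mono-IL10 and at 868, 830, 1158, 566 and 887 CPM in IL10/2-Trikine. In each cytokine group the mouse numbered 4 (a hashtag, so a different animal per group) was the lowest for both genes and lay within the PBS range. Mono-IL10 mice 2 and 3 for Ccl6 and mouse 3 for Ccl9 were also within it, and the other cytokine mice were above every PBS mouse.

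After mono-IL10, Ccl6 rose by 0.50 (SE 0.16, adjusted p = 0.0243) and Ccl9 by 0.57 (SE 0.14, adjusted p = 0.00642) on the log2 scale in edgeR's test. The Ccl6 call was lost without any 1 of 5 mice (PBS 1, 2 or 4, mono-IL10 1 or 5), at 0.43 to 0.47. After IL10/2-Trikine, Ccl6 rose by 0.88 (SE 0.16, adjusted p = 0.000709) and Ccl9 by 0.69 (SE 0.15, adjusted p = 0.00283) in the same test. At equal cluster makeup the IL10/2-Trikine fold went from 1.91 to 1.49 for Ccl6 and from 1.65 to 1.34 for Ccl9, and in library sums each gene was above PBS in 10 of 10 clusters. By the median over mice Ccl6 was above PBS in 7 of 7 clusters and Ccl9 in 6 of 7, with cluster 14 at 980.9 CPM in PBS and 836 CPM in IL10/2-Trikine. For mono-IL10 Ccl6 was above PBS in 8 of 10 clusters in library sums and in 5 of 9 by the median over mice, and its fold went from 1.39 to 1.21. Ccl9 after mono-IL10 was above PBS in 10 of 10 clusters in library sums and in 7 of 9 by the median, and its fold went from 1.43 to 1.23. Between the cytokines neither passed, with 0.39 (SE 0.16, adjusted p = 0.131, edgeR) for Ccl6 and 0.12 (SE 0.15, adjusted p = 0.685, edgeR) for Ccl9.

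Counted together in macrophage-like cells, 2 of the 5 tested chemokines rose and 1 fell after mono-IL10, where 25.1% of all tested genes were called. After IL10/2-Trikine 3 of 5 rose and 0 fell, against 16.4% of all genes called. Between the cytokines 1 of 6 was higher with IL10/2-Trikine, where 10.3% of all genes were called. The median log2 fold change of the tested chemokines was 0.33, 0.69 and 0.48 in these contrasts, and that of all genes was -0.01, 0.00 and 0.01. In droplet libraries fewer producing cells and less RNA per producing cell both lower a summed level, and the sums alone cannot separate them.

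The summed markers of resident-type macrophages (Cd163, Folr2, Lyve1, Mrc1 and F13a1) also differed between the groups, with 1494 to 1998 CPM in PBS, 2560 to 3464 CPM in mono-IL10 and 2670 to 4919 CPM in IL10/2-Trikine mice. The summed Arg1-type markers (Arg1, Hmox1, Vegfa, Ero1a and Spp1) went from 2622 to 3455 CPM in PBS to 4620 to 6375 CPM in mono-IL10 and 4042 to 6068 CPM in IL10/2-Trikine. All markers of these lists were detected, and their part in the chemokine differences was not tested beyond the equal-makeup values above.

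Across the 60 clusters of all cells, the 6 chemokines fell into different company. The gene most alike to Ccl8 by Pearson's r of log2(CPM + 1) was Npl (r = 0.967), followed by Folr2 (0.965) and Fcrls (0.954), and for Ccl12 they were Ms4a7 (0.965), Folr2 and Fcrls (both 0.964). Ccl6 was most like Ccl9 (0.977), Fcgr3 (0.975) and Wfdc17 (0.972), and Ccl9 most like Lyz2 (0.983) and Arg1 (0.983). Ccl2 was most like Ccl7 (0.797), Lamtor3 and Cd63 (both 0.746), and Ccl7 most like Npl (0.848), Ccl12 (0.826) and Plau (0.824). These correlations were over clusters that share libraries, and they are descriptions. Between members, r was 0.953 for Ccl8 and Ccl12 and 0.217 for Ccl2 and Ccl6.

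In single cells Ccl2 and Ccl7 occurred together, and so did Ccl6 and Ccl9, while Ccl12 went with several members. Among thinned PBS macrophage-like cells with a Ccl2 UMI, 71.0% also had Ccl7, against 23.6% of those without Ccl2, and the shares were 73.4% and 18.9% in mono-IL10 and 73.9% and 22.2% in IL10/2-Trikine. For Ccl6, 57.7% of PBS cells with it had Ccl9, against 35.3% of those without. Ccl12 was found in 29.4% of PBS cells with Ccl8 and 17.9% of those without, in 36.4% of those with Ccl2 and 15.8% of those without, and in 35.1% of those with Ccl7 and 14.9% of those without, so the pair of Ccl8 and Ccl12 did not stand out at this level. Ccl7 was in 50.2% of PBS cells with Ccl8 and 32.1% of those without. Ccl9 was in 43.6% of PBS cells with Ccl8 and 53.7% of those without.

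**Figure D3:**
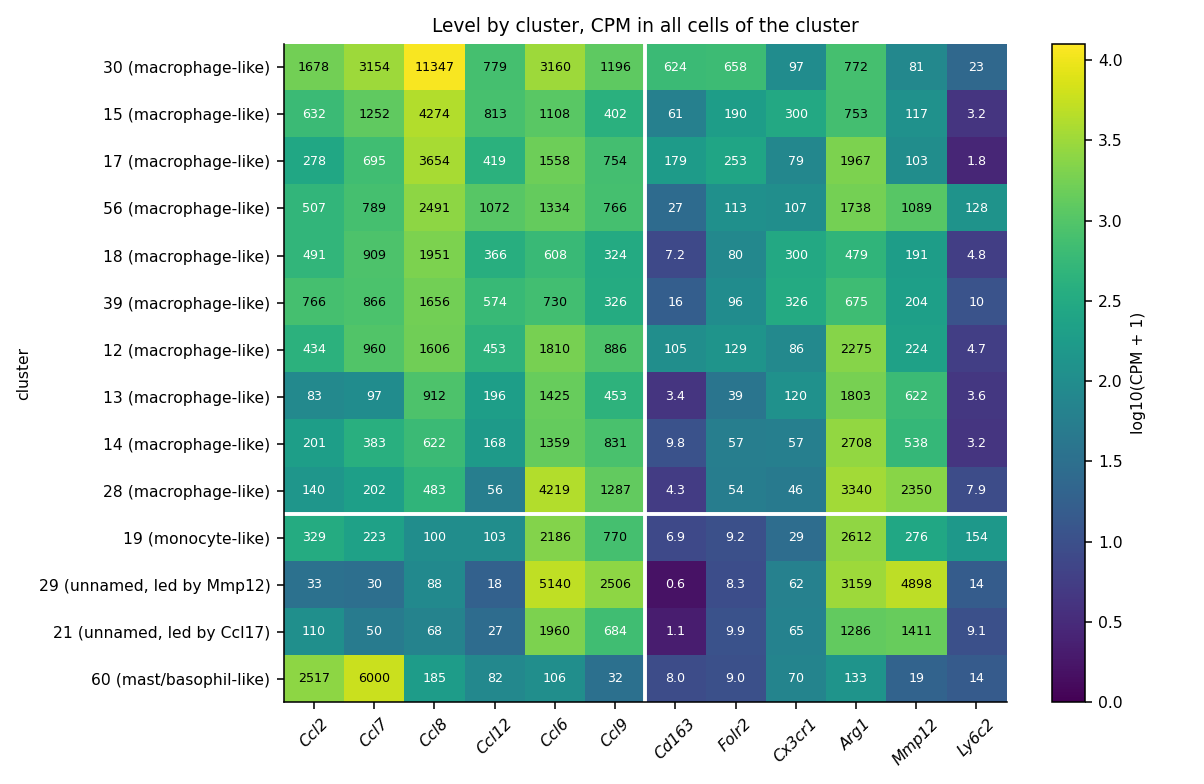
Level of the 6 chemokines and of 6 macrophage or monocyte marker genes in the 10 macrophage-like clusters and 4 other clusters, with the CPM written in each field and colour on a log10(CPM + 1) scale. Ccl8 is highest in cluster 30 (11347 CPM), Ccl6 in cluster 29 (5140 CPM), and Ccl2 and Ccl7 in the mast cell cluster.

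Ccl6 and Ccl9 had their highest levels among phagocyte clusters with Mmp12, the macrophage elastase. Cluster 28 had 4219 CPM of Ccl6 and 1287 CPM of Ccl9, and cluster 29, which stayed unnamed and was led by Mmp12, Cxcl3 and Dcstamp, had 5140 and 2506 CPM. In cluster 29 the Ccl6 level was close between libraries, at 5064 CPM in PBS (95% exact Poisson interval 5001 to 5129), 5298 CPM in mono-IL10 (5145 to 5454) and 5306 CPM in IL10/2-Trikine (5184 to 5431), intervals that cover counting error only and of which those of the cytokines overlapped. Ccl2 there was at 37.3, 4.65 and 37.9 CPM. A further unnamed cluster, led by Ccl17 and Dcstamp, had 1960 CPM of Ccl6.

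Mast cells carried the highest Ccl2 and Ccl7 levels of any named class. This small cluster (52 PBS, 49 mono-IL10 and 57 IL10/2-Trikine cells) was led by the proteases Mcpt2, Mcpt1 and Mcpt4. Its Ccl2 level was 2517 CPM in PBS (exact Poisson interval 2339 to 2705), 3087 CPM in mono-IL10 (2925 to 3255) and 1563 CPM in IL10/2-Trikine (1415 to 1721). Its Ccl7 level was 4755 CPM (4508 to 5011), 7762 CPM (7504 to 8027) and 4437 CPM (4186 to 4699). Without summed values for enough mice there was no test, and these intervals again cover counting error only. Of all Ccl7 UMIs, mast cells gave 3.21% and macrophage-like cells 38.1%.

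**Figure D4:**
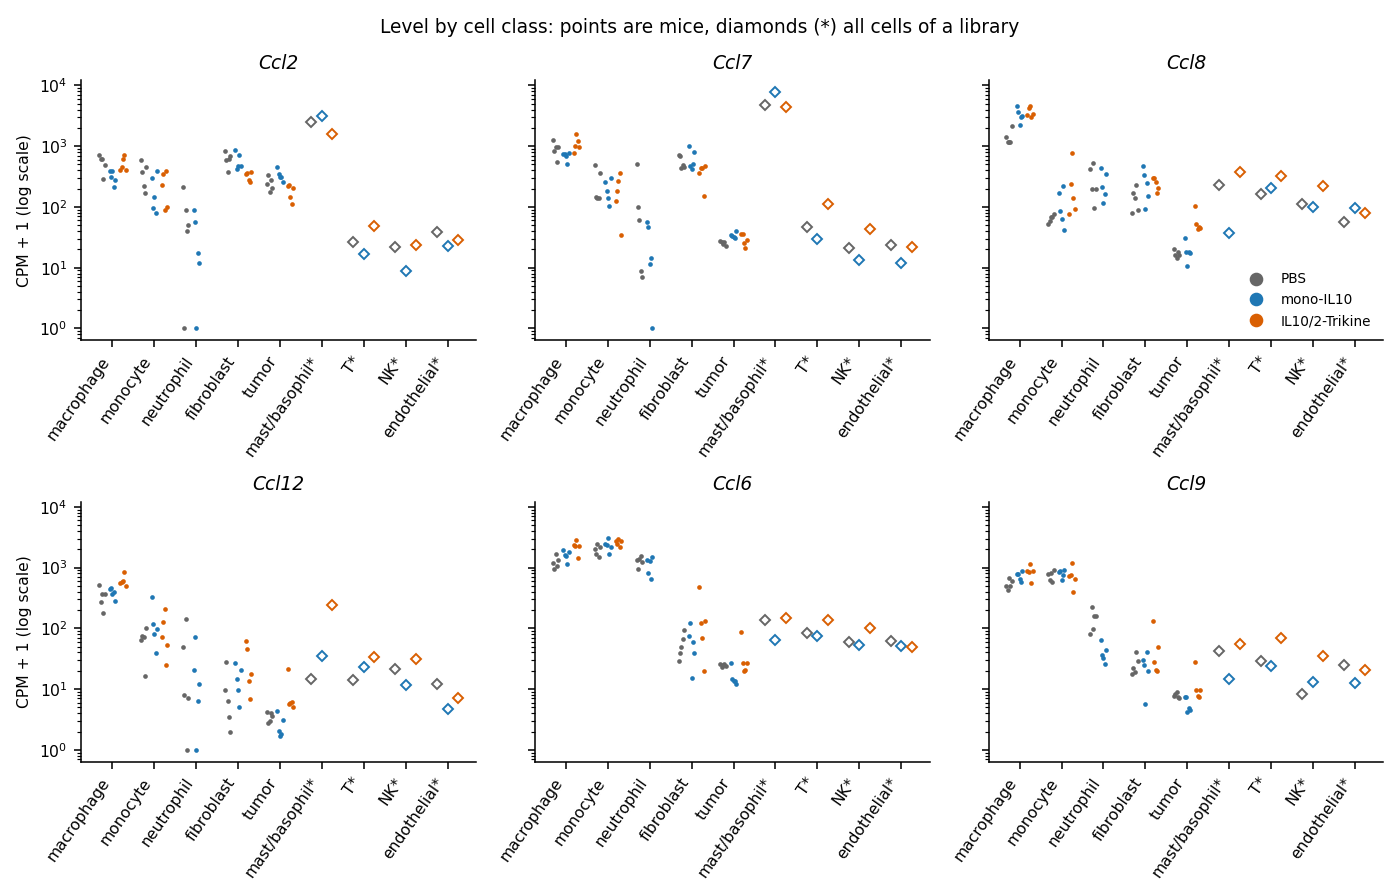
Level of each chemokine by cell class, as CPM + 1 on a log axis, with points for single mice in the 5 classes and open diamonds for all cells of a library in the 4 classes marked with an asterisk. T, NK and endothelial cells, taken as background, lie far below macrophage-like cells.

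T cells, regulatory T cells, NK cells and endothelial cells in the 3 libraries served as the background level. Their 12 values ran from 0 to 47.9 CPM for Ccl2, 6.83 to 111 for Ccl7, 55.4 to 323 for Ccl8, 3.69 to 63.4 for Ccl12, 48.3 to 211 for Ccl6 and 7.27 to 68.8 for Ccl9. Macrophage-like cells were above the top of this range for all 6 genes in every mouse. Neutrophil-like Ccl8, at 93.7 to 529 CPM over mice, and fibroblast-like Ccl8, at 79.6 to 474 CPM, overlapped it. Tumor epithelial-like Ccl8 stayed at 9.60 to 102 CPM. A level within the range is not told apart from background here and is not read as expression. The classes differ in depth, with PBS medians of 2560 UMIs in T cell-like and 19818.5 UMIs in tumor epithelial-like cells, so a CPM range does not serve all of them alike.

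Monocyte-like cells, 1 cluster led by Ccl24, Ccr2 and the monocyte genes Chil3 and Vcan, had Ccl6 and Ccl9 far above background and Ccl8 within or below the background range in all but 1 mouse. Ccl6 was at 1482 to 2442 CPM in PBS, 1694 to 3122 CPM in mono-IL10 and 2147 to 2987 CPM in IL10/2-Trikine mice, with overlap of all groups. Ccl8 was at 51.5, 58.5, 66.2, 66.7 and 75.7 CPM in PBS, 167, 86.2, 62.9, 216 and 41.0 CPM in mono-IL10 and 74.7, 241, 758, 138 and 92.1 CPM in IL10/2-Trikine. IL10/2-Trikine mouse 3, with 33 cells, stood apart. As a description, the log2 fold change of Ccl8 against PBS was 0.90 for mono-IL10 and 1.81 for IL10/2-Trikine, the latter 1.19 without that mouse. Between the cytokines it was 0.91 (SE 0.40, adjusted p = 0.232, edgeR), and 0.29 without that mouse (adjusted p = 0.723, edgeR).

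Of the 6 chemokines, Ccl12 alone was called in monocyte-like cells by edgeR, as 1 of 5 tested after mono-IL10, where 9.36% of all genes were called. It was at 62.3, 72.8, 72.1, 15.7 and 102 CPM in PBS and at 322, 118, 78.6, 38.9 and 95.7 CPM in mono-IL10, so the groups overlapped and mouse 1 led. Its log2 fold change was 1.25 (SE 0.36, adjusted p = 0.0267, edgeR) and dropped to 0.43 (adjusted p = 0.561, edgeR) without mono-IL10 mouse 1. DESeq2 called 0 of the 5 in this contrast, with 1.05 for Ccl12 (adjusted p = 0.404). After IL10/2-Trikine 0 of 5 were called by edgeR against PBS (4.44% of all genes) and 0 of 6 against mono-IL10 (2.99% of all genes). In each of these contrasts 1 had an unadjusted p below 0.05, and DESeq2 called 0. The macrophage markers summed to 4037 to 6024, 3985 to 5697 and 5862 to 8574 CPM in the monocyte-like cells of the 3 groups, and their part was not tested.

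Neutrophil-like cells had a Ccl6 level well above background, at 1307, 942, 1363, 1545 and 1251 CPM in PBS and 1354, 801, 1273, 637 and 1515 CPM in mono-IL10, with a log2 difference of -0.17 (SE 0.20, adjusted p = 0.691, edgeR). The level came mainly from cluster 44, with 1590 CPM in PBS (exact Poisson interval 1502 to 1682), while cluster 46 had 308 CPM (246 to 382). The cluster with more Ccl6 held 226 of 339 PBS and 260 of 607 mono-IL10 neutrophil-like cells.

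Ccl9 fell in neutrophil-like cells after mono-IL10. It was at 80.7, 221, 95.5, 156 and 158 CPM in PBS and at 63.4, 35.0, 31.3, 24.6 and 43.6 CPM in mono-IL10, with no overlap. It fell by 1.80 on the log2 scale (SE 0.31, adjusted p = 0.00132, edgeR), as 1 of 2 chemokines tested, where 5.18% of all genes were called. Ccl2, Ccl7 and Ccl12 did not pass the filter on low counts. The 8 macrophage markers, all detected, summed to 827 to 4817 CPM in PBS and 730 to 1075 CPM in mono-IL10 neutrophil-like cells, moving the same way as Ccl9, and their part in the result was not tested. In T cells the Ccl9 level was 27.6 CPM in PBS and 23.0 CPM in mono-IL10, so the mono-IL10 neutrophil values lay inside the background range.

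Fibroblast-like cells made Ccl2 and Ccl7, and Ccl2 fell in them after IL10/2-Trikine. Ccl2 was at 847, 598, 381, 617 and 700 CPM in PBS, at 851, 422, 463, 711 and 463 CPM in mono-IL10 and at 344, 354, 272, 253 and 379 CPM in IL10/2-Trikine. All IL10/2-Trikine mice were below all others, since the lowest PBS mouse, at 381 CPM, was just above their highest. Ccl2 fell by 1.004 on the log2 scale against PBS (SE 0.21, adjusted p = 0.0302, edgeR) and by 0.95 against mono-IL10 (SE 0.21, adjusted p = 0.0165, edgeR). The call against PBS was lost in 7 of 15 fits that left out 1 mouse, with -1.14 to -0.87 over all 15, and mono-IL10 itself gave -0.05 (SE 0.20, adjusted p = 0.994, edgeR).

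Ccl7 in fibroblast-like cells had the same direction without passing, at -0.87 between the cytokines (SE 0.27, adjusted p = 0.0719, edgeR) and -0.63 against PBS (SE 0.27, adjusted p = 0.306, edgeR). Ccl2 was thus the 1 of 5 tested chemokines called against PBS, where 0.839% of all genes were called, and the 1 of 6 called against mono-IL10, where 3.90% were. By edgeR 5 of 5 had an unadjusted p below 0.05 against PBS and 3 of 6 against mono-IL10. Ccl12, Ccl6 and Ccl9 went up against PBS without a call, at 1.13 to 2.51, 0.616 to 1.87 and 0.231 to 1.26 over the fits that left out 1 mouse. In library sums these genes were inside or below their background CPM ranges in fibroblast-like cells. The macrophage genes C1qa, C1qb and C1qc summed there to 141.5 CPM in PBS, 129.1 CPM in mono-IL10 and 205.3 CPM in IL10/2-Trikine, and their part was not tested. After mono-IL10 0 of 5 passed by edgeR, with 0.0987% of all genes called, 0 had an unadjusted p below 0.05, and DESeq2 called 0 of the 2 for which it gave an adjusted p. Fibroblast-like cells of the IL10/2-Trikine library were shallower, with a median of 5640 UMIs against 14084 in PBS, and with every mouse thinned to the same total the Ccl2 value against PBS was -0.97 (adjusted p = 0.0222, edgeR).

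Tumor epithelial-like cells were the largest source of Ccl2 UMIs, with 51.3% of the total against 13.7% from macrophage-like and 4.46% from fibroblast-like cells. Ccl2 was at 233, 332, 176, 282 and 207 CPM in PBS, at 455, 351, 314, 306 and 261 CPM in mono-IL10 and at 219, 229, 144, 111 and 201 CPM in IL10/2-Trikine. Every IL10/2-Trikine mouse was below every mono-IL10 mouse. The log2 difference between the cytokines was -0.96 (SE 0.21, adjusted p = 0.00256, edgeR), while 0.55 for mono-IL10 (SE 0.21, adjusted p = 0.131, edgeR) and -0.41 for IL10/2-Trikine (SE 0.21, adjusted p = 0.191, edgeR) against PBS did not pass. An unnamed cluster led by Tm4sf1, with Sox9 and Hmga2 among its leading genes, had 503, 543 and 506 CPM of Ccl2 in the 3 libraries.

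Ccl7 lay inside the CPM range of the background classes in tumor epithelial-like cells of every mouse, and its value after mono-IL10 passed the test. It was at 26.9, 25.1, 23.2, 25.02 and 21.6 CPM in PBS and at 33.6, 32.2, 30.6, 30.3 and 39.5 CPM in mono-IL10, with no overlap. The log2 difference was 0.55 (SE 0.12, adjusted p = 0.0156, edgeR) and was the 1 of 5 chemokines called, where 5.69% of all genes were called. This call was lost with the alternative of 40 clusters. Endothelial-like cells, the deepest background class, had 22.7 CPM of Ccl7 in PBS and 11.1 CPM in mono-IL10, against 20.7 and 30.1 CPM in tumor cells. Per C1q UMI, Ccl7 was at 0.605 in PBS and 1.81 in mono-IL10 tumor cells and at most 0.253 in the background classes. The part of free RNA in the difference was not tested.

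The 4 macrophage-rich chemokines were higher in tumor epithelial-like cells with IL10/2-Trikine than with mono-IL10, and so was the summed C1q level. In library sums C1q was at 34.1 CPM in PBS, 16.6 CPM in mono-IL10 and 41.0 CPM in IL10/2-Trikine tumor cells. Ccl8 was at 15.9, 17.3 and 46.7 CPM and Ccl6 at 20.2, 12.5 and 22.2 CPM in the same order. Against mono-IL10, Ccl8 differed by 1.59 (SE 0.25, adjusted p = 0.00019), Ccl12 by 2.11 (SE 0.47, adjusted p = 0.00265), Ccl9 by 1.15 (SE 0.34, adjusted p = 0.0148) and Ccl6 by 1.07 (SE 0.35, adjusted p = 0.0284) on the log2 scale in edgeR's test. With Ccl2 these made 4 of 6 higher and 1 lower, where 31.3% of all genes were called. Against PBS, Ccl12 was the 1 of 5 called, at 1.60 (SE 0.45, adjusted p = 0.0193, edgeR), where 20.7% of all genes were called.

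Ccl8 was at 18.98, 14.9, 13.7, 17.4 and 15.4 CPM in PBS, at 29.3, 16.9, 9.60, 17.3 and 16.7 CPM in mono-IL10 and at 102, 52.3, 42.9, 46.4 and 44.3 CPM in IL10/2-Trikine tumor epithelial-like cells. IL10/2-Trikine mouse 1 stood apart, and without it the difference from mono-IL10 was 1.31 for Ccl8 (adjusted p = 0.000139), 1.47 for Ccl12 (adjusted p = 0.00287), 0.65 for Ccl9 (adjusted p = 0.0157) and 0.52 for Ccl6 (adjusted p = 0.064) by edgeR. The Ccl6 call was also lost without any 1 of mono-IL10 mice 2 to 5, at 0.95 to 1.04. Against PBS, the Ccl12 call was lost without PBS mouse 2, at 1.5 (adjusted p = 0.05, edgeR). The 8 macrophage markers, all detected, summed to 136 to 268 CPM in PBS, 81.2 to 152 CPM in mono-IL10 and 124 to 562 CPM in IL10/2-Trikine tumor cells, and their part was not tested. All these Ccl8 values were inside or below the background range of 55.4 to 323 CPM. Per C1q UMI, Ccl8 in tumor cells was at 0.465, 1.04 and 1.14 in the 3 libraries, against 0.234 to 0.923 in the background classes. By the same measure Ccl6 was at 0.753 with mono-IL10 and 0.541 with IL10/2-Trikine, Ccl9 at 0.254 and 0.186, and Ccl12 at 0.088 and 0.117. The background classes reached 0.733 for Ccl6, 0.1905 for Ccl9 and 0.256 for Ccl12. In library sums Ccl6, Ccl9 and Ccl12 were also inside or below their background CPM ranges. The part of free RNA in these differences was not tested.

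**Figure D5:**
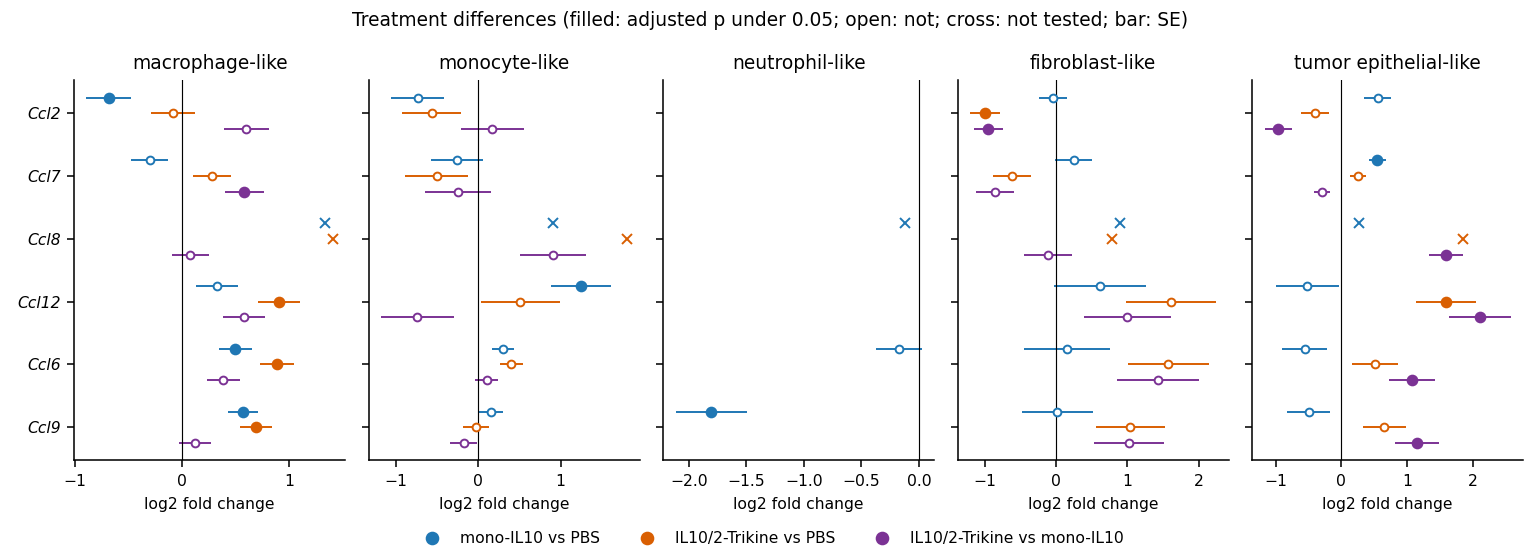
Log2 fold changes of the 6 chemokines in the 5 classes with their SE, where filled points passed an adjusted p of 0.05, open points did not and crosses (Ccl8 against PBS, with no error bar) were not tested. In macrophage-like cells Ccl6 and Ccl9 lie right of 0 in both contrasts against PBS, whereas Ccl2 lies left of 0 after mono-IL10 at -0.68.

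Whether a treatment effect differed between macrophage-like cells and another class was tested within mice for 50 combinations of gene, class and contrast. By the exact two-sided permutation test over 252 splits of the mice, 0 of 50 passed the Benjamini-Hochberg adjustment and 15 had an unadjusted p below 0.05. The smallest p the design allows, 0.00794, was reached 7 times, with an adjusted p of 0.0567. Among these was Ccl2 between the cytokines, which was 0.70 higher with IL10/2-Trikine in macrophage-like cells and -0.82 in fibroblast-like and -0.92 in tumor epithelial-like cells on the log2(CPM + 1) scale. The opposite directions of Ccl2 in these classes gave the smallest p possible here and still missed the threshold after adjustment. This test therefore cannot decide whether they differ, and a difference was not shown.

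Of the receptors of these chemokines, Ccr1, the receptor for Ccl6 and Ccl9, rose in macrophage-like cells by 0.41 on the log2 scale after mono-IL10 (SE 0.08, adjusted p = 0.000589, edgeR). It was lower with IL10/2-Trikine than with mono-IL10, at -0.34 (SE 0.08, adjusted p = 0.00978, edgeR). Ccr2 was at 541 CPM in monocyte-like and 74.5 CPM in macrophage-like cells, and Ccr8, the receptor for Ccl8, was at 140 CPM in regulatory T cell-like and 0.385 CPM in macrophage-like cells.

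Of the list of 8 other CC chemokines, 7 were tested in macrophage-like cells. After mono-IL10, 1 rose and 4 fell, where 25.1% of all genes were called. Ccl24, an eosinophil chemokine, rose by 1.71 (SE 0.50, adjusted p = 0.0153), whereas Ccl17 fell by 1.88 (SE 0.39, adjusted p = 0.00123), Ccl11 fell by 1.76 (SE 0.41, adjusted p = 0.00308) and Ccl22 fell by 1.43 (SE 0.38, adjusted p = 0.00945) on the log2 scale in edgeR's test, as did Ccl3. The 3 genes that fell most were at only 4.08 CPM (Ccl17), 1.28 CPM (Ccl11) and 2.02 CPM (Ccl22) in macrophage-like cells. These levels were inside the ranges of the T, regulatory T, NK and endothelial cell classes and are not told apart from background. Mature dendritic cell-like cells held 1190 CPM of Ccl17 and 1526 CPM of Ccl22, and fibroblast-like cells 194 CPM of Ccl11, and their part in these differences was not tested. After IL10/2-Trikine, where 16.4% of all genes were called, 2 rose and 0 fell, namely Ccl24, by 1.76 (SE 0.52, adjusted p = 0.024, edgeR), and Ccl5, by 0.80 (SE 0.25, adjusted p = 0.0309, edgeR). Ccl5 is a T and NK cell chemokine, and the T cell markers in macrophage-like cells summed to 18.95 to 34.0 CPM in PBS and 35.2 to 61.7 CPM in IL10/2-Trikine mice, a shift whose part was not tested. Between the cytokines, where 10.3% of all genes were called, 0 of the 7 were called by edgeR, and 2 had an unadjusted p below 0.05.

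Of 11 genes that induce or restrain chemokine transcription, 9 were tested, and 5 of them passed after mono-IL10, against 25.1% of all genes. Nfkbia, which encodes an inhibitor of NF-kappaB, rose by 0.74 (SE 0.10, adjusted p = 1.79e-05), Il1b by 0.53 (SE 0.13, adjusted p = 0.00655) and Ifnb1 by 2.57 (SE 0.75, adjusted p = 0.0155), while Csf1, the macrophage growth factor, fell by 0.53 (SE 0.14, adjusted p = 0.00936) in edgeR's test, which made 4 that rose, Zfp36 included, and 1 that fell. After IL10/2-Trikine 0 of 9 were called by edgeR against PBS, with 2 at an unadjusted p below 0.05, and Nfkbia, Il1b and Zfp36 were lower than with mono-IL10, at -0.70 (adjusted p = 0.00023), -0.61 (adjusted p = 0.00721) and -0.30 (adjusted p = 0.0105, edgeR). Of all genes, 16.4% and 10.3% were called in these 2 contrasts.

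Genes of IL-10 and IL-2 receptor signalling, 11 of 11 tested, gave 3 that rose after mono-IL10, 2 that rose and 1 that fell after IL10/2-Trikine, and 1 higher and 2 lower between the cytokines. Of all genes, 25.1%, 16.4% and 10.3% were called in these contrasts, so after mono-IL10 the share of this list was near the background. Stat3, the signal transducer of IL-10, rose by 0.53 (SE 0.07, adjusted p = 1.86e-05) and by 0.32 (SE 0.07, adjusted p = 0.00469) in the contrasts against PBS, by edgeR. Socs3, a Stat3 target that restrains cytokine signalling, rose by 0.67 (SE 0.09, adjusted p = 1.21e-05, edgeR) after mono-IL10 and was lower with IL10/2-Trikine than with mono-IL10 (-0.61, SE 0.09, adjusted p = 0.000273, edgeR). Il10ra, a chain of the IL-10 receptor, was the 1 gene that fell after IL10/2-Trikine, and it was also lower than with mono-IL10. Il2rb, the IL-2 receptor beta chain, was higher with IL10/2-Trikine by 1.14 against PBS (SE 0.25, adjusted p = 0.00417, edgeR) and by 1.51 against mono-IL10 (SE 0.26, adjusted p = 0.00122, edgeR). Il2rb was at 1228 CPM in NK cell-like and 10.5 CPM in macrophage-like cells, and the NK markers in macrophage-like cells summed to 3.24 to 6.88 CPM in PBS and 4.68 to 16.3 CPM in IL10/2-Trikine mice, a shift whose part was not tested.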

How the data were processed

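The matrices were deposited as UMI counts per gene and barcode, which the authors made with Cell Ranger on GRCm39 with no normalization, 1 library per treatment. Their later steps used Seurat 5.1.0 and DESeq2 1.46.0 per the processing notes. Their table of annotated T and NK cells, deposited as counts and names, served only as a check: hashtag calls matched in 96.64% and no cell had a different mouse. A further 7858 cells in it belonged to no sample analysed here and were not used.

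Cells needed 1000 or more detected genes and no more than 10% of UMIs from mitochondrial genes, hashtags were called with HTODemux (Seurat 5.3.0, quantile 0.99), and doublets by hashtag (8.504% to 12.17%) were left out; doublets of 1 mouse could not be seen. Cells without a mouse (17.91% to 32.12%) entered library levels only. Principal components (40) and k-means (60 clusters, scikit-learn 1.9.0) used no chemokine or chemokine receptor gene. Clusters were named from marker lists; the naming thresholds were changed after the clusters had been inspected (the lowest score from 0.25 to 0.2).

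Counts were summed per mouse with at least 20 cells of a class and tested with edgeR 4.0.16 (quasi-likelihood, TMM, filterByExpr, Benjamini-Hochberg over all genes, threshold 0.05), with 3 or more mice per group. Mice are separate animals, but every group is 1 library. On simulated data of 11682 genes, mono-IL10 against PBS in macrophage-like cells, 87% of 2-fold and 99% of 4-fold changes were recovered, with 11 false calls. For IL10/2-Trikine against PBS these were 80%, 97% and 9, and between the cytokines, simulated without a difference, 0 genes were called. The members and lists were chosen with earlier results of these data known. All members were named, list genes by the lowest adjusted p in macrophage-like cells (at most 4 a list and contrast), and alike genes as the 3 with the highest r. Alternatives were DESeq2 1.42.0, no filter, 2000 genes per cell, 40 clusters, thinning, and each mouse left out. Intervals cover counting error only, at 95%. Results that need certain items are not reported here.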

Additional observations from a re-analysis of the deposited data

Results flagged for a closer look

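Single mice stood apart in 13 of the 84 sets of 5 mice examined, by a gap to the nearest mouse that exceeded Dixon's 95% critical value. Chance alone gives about 1 in 20 such sets for independent values of a normal distribution. These sets share mice, the CPM were not log-transformed and all 13 values were the highest of their 5, so the count cannot be set against that rate. In macrophage-like cells these were Ccl8 in PBS mouse 5, at 2131.7 CPM against 1163.7 to 1406.4 CPM in the others, and Ccl12 in IL10/2-Trikine mouse 4, at 859 CPM against 503 to 603 CPM. In monocyte-like cells they were Ccl12 in mono-IL10 mouse 1 (322 CPM, others 38.9 to 118) and Ccl8 in IL10/2-Trikine mouse 3 (758 CPM, others 74.7 to 241).

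In neutrophil-like cells, Ccl7 in PBS mouse 1 was at 508 CPM (others 6.07 to 99.9) and Ccl12 in mono-IL10 mouse 2 at 70 CPM (others 0 to 19.3). In fibroblast-like cells, IL10/2-Trikine mouse 1 stood out for Ccl6 (470 CPM, others 18.9 to 131) and Ccl9 (131 CPM, others 18.9 to 48.7). In tumor epithelial-like cells the same mouse stood out for Ccl8 (102 CPM, others 42.9 to 52.3), Ccl12 (20.4 CPM, others 3.98 to 5.14), Ccl6 (85.3 CPM, others 18.8 to 26.4) and Ccl9 (27 CPM, others 6.4 to 8.49), and mono-IL10 mouse 1 for Ccl6 (26.4 CPM, others 11.1 to 13.8). Of the 13, 6 were IL10/2-Trikine mouse 1 in fibroblast-like and tumor epithelial-like cells, and the cause was not tested.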

How the results depend on the processing

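Treatment and library cannot be told apart, the IL10/2-Trikine library was the shallowest, and part of all clusters stayed unnamed. No paired analysis was possible because each hashtag number marks a different mouse in each library. The calls of Ccl9 in both contrasts against PBS and of Ccl6 and Ccl12 after IL10/2-Trikine in macrophage-like cells held under DESeq2, no filter, 2000 genes per cell, 40 clusters and thinning. The differences of effects under 2000 genes per cell and 40 clusters were added after seeing the data. Some alternatives gave no value: with 2000 genes per cell too few mice had enough monocyte-like cells after IL10/2-Trikine or neutrophil-like cells, and after thinning Ccl12 in monocyte-like and Ccl9 in neutrophil-like cells did not pass the filter on low counts. The cause of each change below was not tested, except that thinning removes UMIs.

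Counts of genes called that moved by over 1.5 times are given below, where contrast A is mono-IL10 against PBS, B is IL10/2-Trikine against PBS and C is IL10/2-Trikine against mono-IL10, in that order where no letter stands. With thinning they were 1042, 896 and 343 in macrophage-like, 96, 80 and 73 in monocyte-like, 72 in neutrophil-like, 4 (A) and 206 (C) in fibroblast-like and 517 (A) in tumor epithelial-like cells. With 2000 genes per cell they were 961 in macrophage-like cells (B) and 164 in monocyte-like cells (A). With no filter they were 276 in monocyte-like (C), 220 in neutrophil-like and 99, 166 and 592 in fibroblast-like cells. With DESeq2 they were 89 and 160 in fibroblast-like (A and B) and 1328 in tumor epithelial-like cells (A).

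Among the chemokines, Ccl7 between the cytokines in macrophage-like cells was 0.486 with 2000 genes per cell (adjusted p = 0.0974, edgeR). Ccl12 after mono-IL10 in monocyte-like cells was 1.05 with DESeq2, 0.872 with 2000 genes per cell and 1 with 40 clusters. Ccl2 after IL10/2-Trikine in fibroblast-like cells was -0.931 with 2000 genes per cell (adjusted p = 0.0533, edgeR). Ccl7 after mono-IL10 in tumor epithelial-like cells was 0.407 with 40 clusters (adjusted p = 0.0929, edgeR), where its mean level was 34.6 CPM.

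Leaving out 1 mouse at a time gave 669 to 1284 genes called between the cytokines in macrophage-like cells (lowest without IL10/2-Trikine mouse 1), 140 to 245 and 93 to 187 in monocyte-like cells for contrasts B and C, 70 to 162 in neutrophil-like, 1 to 15, 18 to 83 and 174 to 309 in fibroblast-like and 453 to 1162 in tumor epithelial-like cells for contrast A. For single chemokines the ranges were -0.843 to -0.578 for Ccl2 and 0.426 to 0.614 for Ccl6 after mono-IL10 and 0.44 to 0.692 for Ccl7 between the cytokines in macrophage-like cells, and 0.432 to 1.42 for Ccl12 after mono-IL10 in monocyte-like cells. They were -1.14 to -0.865 for Ccl2 after IL10/2-Trikine in fibroblast-like cells, and 0.958 to 1.76 for Ccl12 after IL10/2-Trikine and 0.516 to 1.35 for Ccl6 between the cytokines in tumor epithelial-like cells. Calls were also gained. In macrophage-like cells between the cytokines these were Ccl12 without PBS mouse 1 or 4, Ccl2 without PBS mouse 4 and Ccl6 without IL10/2-Trikine mouse 4. Ccl7 after mono-IL10 was called there without PBS mouse 4. In tumor epithelial-like cells they were Ccl2 after mono-IL10 without PBS mouse 2 and Ccl7 after IL10/2-Trikine without IL10/2-Trikine mouse 4. Ccl7 between the cytokines was called there without IL10/2-Trikine mouse 1 or 2. Ccl8 after mono-IL10 in neutrophil-like cells, untested, ran from -0.499 to 0.204, with 0.0841 without PBS mouse 1, 0.204 without PBS mouse 3, 0.043 without mono-IL10 mouse 3 and 0.0449 without mono-IL10 mouse 4.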

Other observations

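The mature dendritic cell-like cluster had Ccl8 at 334 CPM in PBS (174 cells), 872 CPM in mono-IL10 (100 cells) and 1012 CPM in IL10/2-Trikine (132 cells). Mice varied widely: the PBS mice had 1017, 292.8, 49.67, 134 and 563.5 CPM, so 3 of 5 were inside or below the background range, and the mice with 20 or more cells had 1784 and 413.1 CPM in mono-IL10 and 1642, 973 and 407.4 CPM in IL10/2-Trikine. The macrophage gene C1qa was at 602.5 CPM in this cluster, and its part was not tested. The Ccl2 level was 186, 81.8 and 106 CPM and the Ccl7 level 228, 101 and 299 CPM in the same order. Conventional dendritic cell-like clusters had 250, 505 and 361 CPM of Ccl8. Of the 560 Ccl8 UMIs behind the mono-IL10 value, mono-IL10 mouse 4, with 8 cells, held 277. The library levels are values of single libraries with no test.

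Fibroblast-like clusters differed among themselves. Ccl2 in cluster 36 was at 655, 605 and 423 CPM in PBS, mono-IL10 and IL10/2-Trikine, and in cluster 34 at 356, 559 and 274 CPM. In cluster 58, the smallest of the 3, it was at 820 CPM (59 cells), 453 CPM (37 cells) and 461 CPM (138 cells). All were led by Col1a1, Col1a2 and Col3a1. The IL10/2-Trikine library had the lowest Ccl2 value in clusters 34 and 36 but not in cluster 58, where both cytokine libraries were below PBS.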
